A study of Mus musculus with 12 samples.

Results

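The 41 transcripts described here encode the enzymes that carry glucose and lactate carbon through pyruvate into the mitochondrial tricarboxylic acid (TCA) cycle, together with the pyruvate carrier, 1 plasma membrane lactate carrier and the cytosolic relatives of TCA enzymes. They were picked by gene symbol from a table of 24255 mouse genes. The rule used no measured value, but earlier results of these data were known when it was set. Transcripts were measured by RNA-Seq of immature, germinal vesicle (GV) stage oocytes in 12 libraries of 20 oocytes each. All mice were 3 weeks old C57BL/6 females that had received 5 IU of PMSG, a gonadotropin that drives follicle growth, 46 h before collection. The 4 groups had 3 libraries each. WT mice carried the normal Dpagt1 alleles. MUT mice were homozygous for the ENU-induced D166G missense mutation of Dpagt1 in every tissue. GcKO mice were Dpagt1F/F with a Gdf9-driven Cre, which acts in oocytes, and AmcKO mice were Dpagt1F/F with an Amhr2-driven Cre, which acts in granulosa cells, so that AmcKO oocytes themselves were not the target of the deletion. The labels of WT and MUT name no floxed allele and no Cre. Dpagt1 encodes the enzyme that starts the lipid-linked sugar used for N-glycosylation of proteins.

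Glycolysis splits glucose into pyruvate in the cytosol. Lactate dehydrogenase interconverts pyruvate and lactate, and it is built from A subunits (Ldha) and B subunits (Ldhb). Pyruvate enters mitochondria through the carrier Mpc1/Mpc2 and is turned into acetyl-CoA by the pyruvate dehydrogenase complex, and the TCA cycle then oxidises it. A mouse oocyte uses glucose poorly by itself, and the cumulus granulosa cells around it supply pyruvate. The comparisons against WT address whether the loss of Dpagt1 function in all tissues, in the oocyte or in granulosa cells went with altered levels of these transcripts in the oocyte.

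Levels are in FPKM, fragments per kilobase of transcript scaled to the mapped fragments of the library, as deposited. Summed over all genes, WT libraries held 1167362 to 1226005 FPKM and AmcKO libraries 883256 to 1107925, while MUT libraries held 589617 to 611597 and GcKO libraries 482314 to 684212, and 9359 to 9622 genes lay above 0 in WT against 10399 to 11608 in the other groups. Low values fell on whole multiples of a smallest step, which is the worth of 1 fragment. That step was 2.28 to 2.66 times as high in WT, 0.902 to 1.5 times in GcKO and 1.21 to 1.5 times in AmcKO as in the library MUT 2, so low FPKM values in WT rested on fewer fragments. Dpagt1 itself did not check the labels: it was listed at 0 in all WT and AmcKO libraries, at 0.878, 0.408 and 0.985 FPKM in MUT and above 0 in 1 of 3 GcKO libraries, and it was below the limit for testing. All 12 oocyte markers passed the limit for testing. They summed to 10900 to 11900 FPKM in WT, and to less in each other library (MUT 7140 to 8780, GcKO 6240 to 9020, AmcKO 9230 to 9930). Zp2, Zp3 and Oosp1 were called lower in MUT and Zp2 and Oosp1 in GcKO, while Ddx4 and Zp1 were low throughout, with means of 3.14 and 29.9 FPKM. The part of these shifts in the member values was not tested. Of 18 granulosa and cumulus markers, 6 were at 0 in all libraries (Foxl2, Amh, Amhr2, Lhcgr, Npr2 and Slc38a3), and the sum over the list was 18.4 to 23.1 FPKM in WT and overlapped it in every other group (MUT 15.7 to 27.4, GcKO 15.3 to 29.2, AmcKO 11.9 to 22.7). Most of the WT sum was Cyp19a1, at 15.1 to 20.1 FPKM. Of the others, Inha and Hsd17b1 were called higher in MUT than in WT (2.15, adjusted p 0.0026, and 1.45, adjusted p 0.0118, by limma) and higher in MUT than in AmcKO (1.87, adjusted p 0.0153, and 1.45, adjusted p 0.0273, by limma), and their part in the MUT values of the members was not tested. Theca, leukocyte and erythrocyte lists summed to at most 5.11, 2.86 and 1.53 FPKM. Dcn, the 1 theca and stroma marker tested, was called lower in MUT than in WT (-1.56). The labels do not say which libraries came from separate animals, so the p-values measure the spread between these libraries.

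The promoters of the lactate dehydrogenase genes and of citrate synthase are shown because the results below turn in large part on these 3 transcripts. The sequences are the 250 bases before the first listed RefSeq start on the gene's strand (GRCm38.p6), at chr7:46845554-46845803 on the plus strand for Ldha, chr6:142507958-142508207 on the minus strand for Ldhb and chr10:128337477-128337726 on the plus strand for Cs. Capitals mark the hypoxia response core ACGTG on either strand, which also covers the E-box CACGTG.
Ldha: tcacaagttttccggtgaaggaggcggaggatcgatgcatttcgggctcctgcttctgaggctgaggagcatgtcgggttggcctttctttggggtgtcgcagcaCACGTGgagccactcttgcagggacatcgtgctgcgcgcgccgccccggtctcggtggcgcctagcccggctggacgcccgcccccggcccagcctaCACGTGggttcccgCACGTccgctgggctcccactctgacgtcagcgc
Ldhb: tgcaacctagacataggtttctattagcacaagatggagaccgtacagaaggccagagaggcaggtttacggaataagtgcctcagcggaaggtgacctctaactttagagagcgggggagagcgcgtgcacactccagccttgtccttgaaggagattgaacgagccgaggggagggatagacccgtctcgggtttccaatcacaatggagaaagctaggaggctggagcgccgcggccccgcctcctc
Cs: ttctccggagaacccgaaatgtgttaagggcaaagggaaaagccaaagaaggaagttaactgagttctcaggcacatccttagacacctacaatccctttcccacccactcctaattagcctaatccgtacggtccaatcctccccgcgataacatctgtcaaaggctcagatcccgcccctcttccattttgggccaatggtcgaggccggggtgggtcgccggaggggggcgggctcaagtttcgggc
The Ldha window holds E-boxes and a separate core, and neither the Ldhb nor the Cs window holds either motif. Over windows that also take in the 50 bases after the start, the core ACGTG occurred in 13 of 40 members with a listed promoter (32.5%), among them Hk2, Gapdh, Pgk1, Pgam1, Slc16a1 and Ldha, and in 19.7% of the 27025 promoters of all genes. The E-box CACGTG occurred in 10.0% of member promoters and 7.24% of all promoters. AAGGTCA, the estrogen-related receptor element, stood in 5.0% of member promoters against 4.66% of all, and the NRF1 core GCGCATG in 5.0% against 4.04%. Member promoters had a median GC content of 61.9% and a median of 20.5 CG dinucleotides, against 52.7% and 7.0 over all promoters. A motif match is only a description of the letters in these windows.

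Ldhb was by far the most abundant of the 41 transcripts, and most glycolytic transcripts were scarce. Of the summed FPKM of all members, Ldhb made up 85.5% to 86.6% in WT and 85.6% to 86.1% in AmcKO. Its share was smaller in MUT (75.8% to 78.6%) and in GcKO (78.8% to 81.8%). The members together held 0.457% to 0.575% of the FPKM sum of a library, where WT (0.481% to 0.533%) overlapped MUT (0.457% to 0.494%) and AmcKO (0.499% to 0.553%) and lay just below GcKO (0.535% to 0.575%). After Ldhb (mean 3620 FPKM over 12 libraries) came Pdhx with 138 FPKM, Mpc1 with 109 and Dld with 90.3, all of them genes of pyruvate entry. In all, 3 members had a mean of at least 100 FPKM, 12 lay between 10 and 100, 14 between 1 and 10, and 12 below 1. Hk1, Aldoc and Eno3 were listed at 0 in every library. Hk2, Pfkl, Eno1 and Pcx stayed below 1 FPKM throughout, so these 7 members were not tested and 34 were. Eno1, an enzyme of general use, was listed at about 0.00086 FPKM in all libraries, and such a value may be a failed estimate rather than a level. Reads of Gapdh, Pgk1, Pgam1, Eno1, Ldha and Aldoa can also be shared with processed pseudogenes, so their low values are uncertain.

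**Figure D1:**
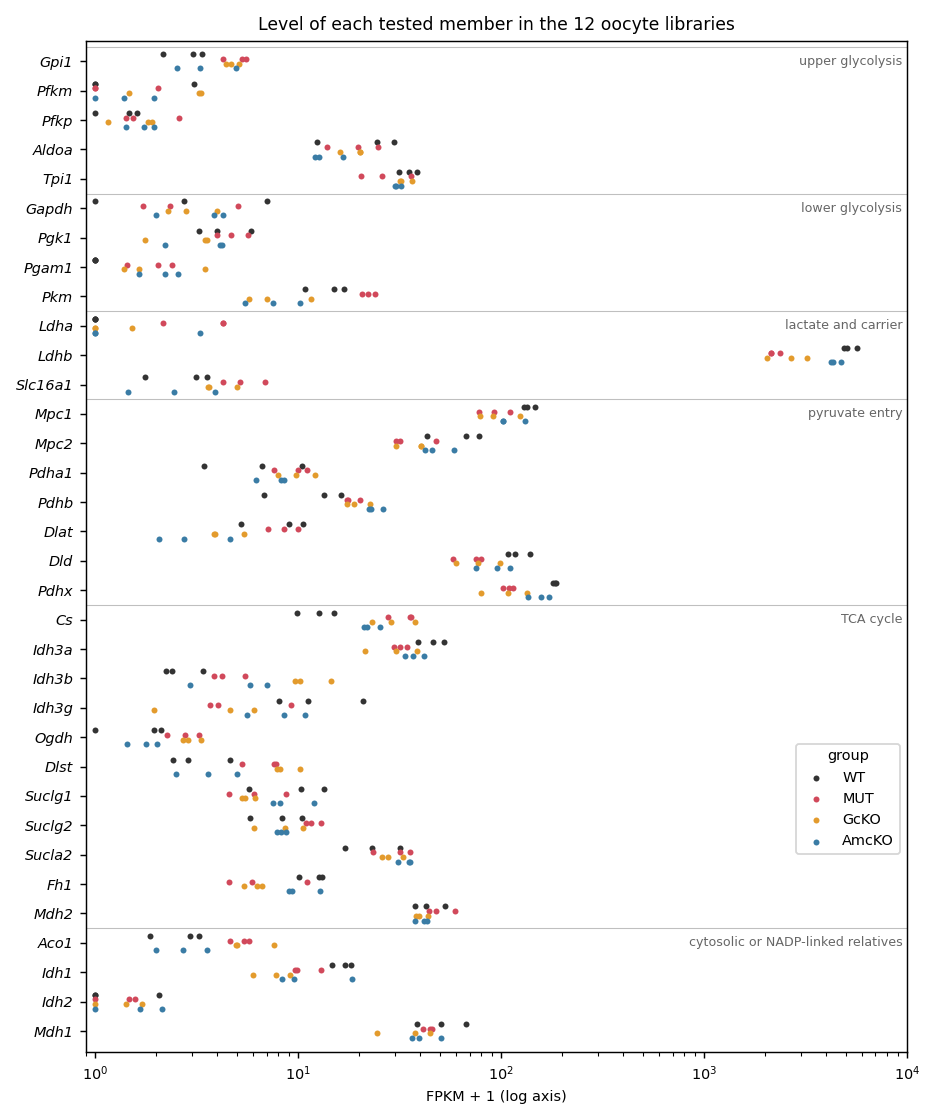
FPKM + 1 on a log axis for the 34 tested members, 1 point per library and 1 colour per group (3 libraries each), with rows grouped by role. Ldhb stands alone at 2034 to 5653 FPKM, its MUT and GcKO points lie below its WT points, and Gapdh, Pgam1, Pfkm and Ldha are among the members at 0 in some libraries.

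Against WT, 8 members were called in MUT and 11 in GcKO, and none in AmcKO. A call is a Benjamini-Hochberg adjusted p under 0.05 over the 11233 genes tested, from limma on log2(FPKM + 1). In MUT, 4 members were lower (Ldhb, Mpc2, Dld and Pdhx) and 4 were higher (Ldha, Cs, Dlst and Aco1), which is 23.5% of the 34 members tested, beside 20.8% of all genes (11.3% lower and 9.46% higher). In GcKO, 7 members were lower (Ldhb, Dld, Pdhx, Idh3a, Idh3g, Fh1 and Idh1) and 4 were higher (Cs, Idh3b, Dlst and Aco1), which is 32.4% of the members beside 20.2% of all genes (11.4% lower and 8.71% higher). Both comparisons share the WT libraries. MUT and GcKO libraries were numbered 1 to 3, and WT and AmcKO libraries 4 to 6. In comparisons across these 2 number sets, a difference between the sets cannot be told apart from genotype. Within a set, AmcKO against WT called 0.214% of all genes and GcKO against MUT 0.205%. The median difference of the members was 0.13 on the log2 scale in MUT and -0.01 in GcKO, beside 0.12 over all genes in each. In AmcKO the smallest adjusted p of a member was 0.114 by limma, and 0.214% of all genes were called (0.116% lower and 0.0979% higher). At an unadjusted p under 0.05 by limma there were 7 members. The share of all genes at that unadjusted threshold was not computed, here or for the counts below.

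**Figure D2:**
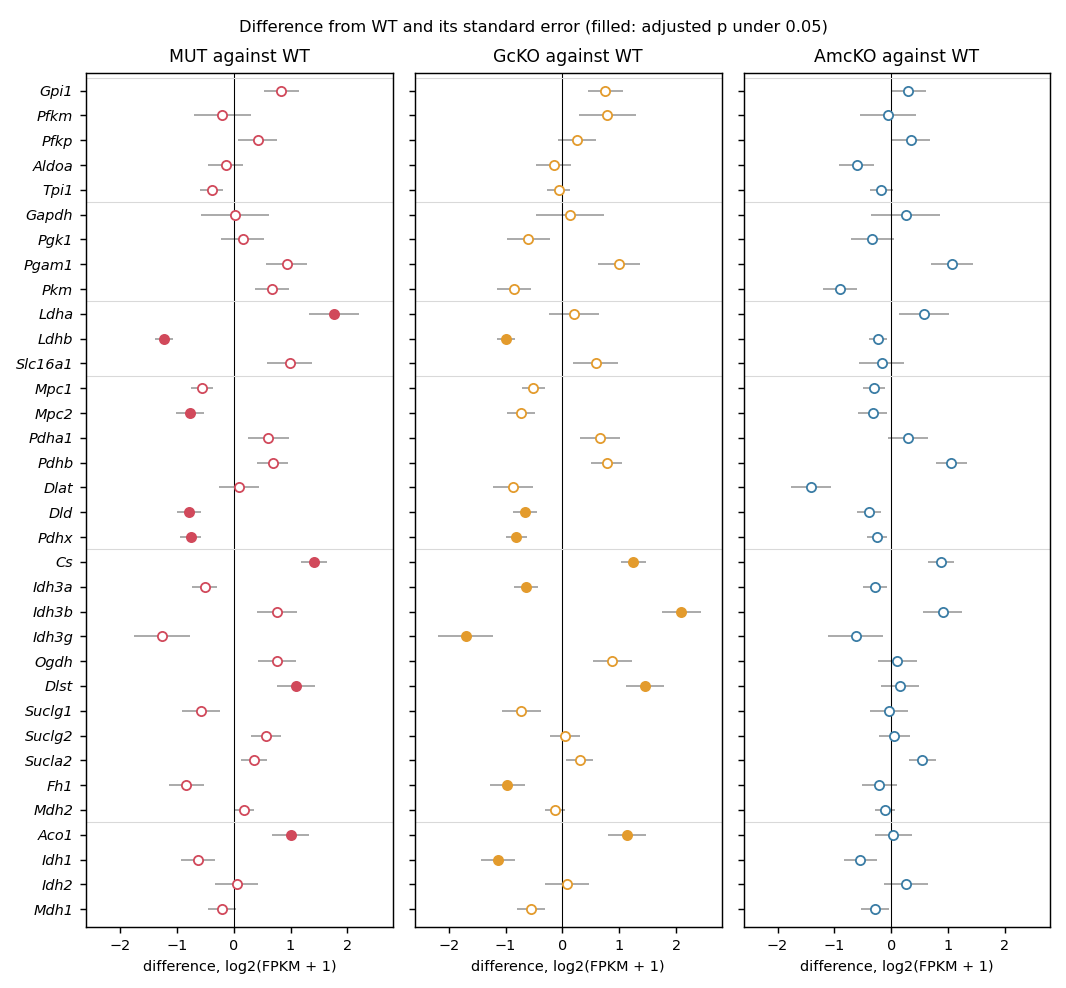
Difference from WT in log2(FPKM + 1) with its standard error for the 34 tested members in MUT, GcKO and AmcKO, 3 libraries per group; filled points have an adjusted p under 0.05. MUT has 8 filled points, GcKO 11 and AmcKO none, and Idh3b in GcKO lies farthest to the right at 2.09.

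Over all genes, the direction of a call went with abundance. Of the 882 genes with a mean of at least 100 FPKM, 68.1% were lower and 2.61% higher in MUT, and 71.0% were lower and 1.7% higher in GcKO. In that class 2 of 3 members (Ldhb and Pdhx) were lower in both. Of the 7812 genes under 10 FPKM, 1.97% were lower and 8.76% higher in MUT, where 3 of 19 members (Ldha, Dlst and Aco1) were higher and 0 lower. In the class between, 20.2% of genes were lower and 14.0% higher in MUT, and of the 12 members Mpc2 and Dld were lower and Cs was higher. Under 10 FPKM, 1.82% of genes were lower and 8.31% higher in GcKO, and of the 19 members 2 (Fh1 and Idh3g) were lower and 3 (Idh3b, Dlst and Aco1) higher. Between 10 and 100 FPKM, 20.4% were lower and 12.4% higher, and of the 12 members 3 (Dld, Idh3a and Idh1) were lower and Cs was higher.

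**Figure D3:**
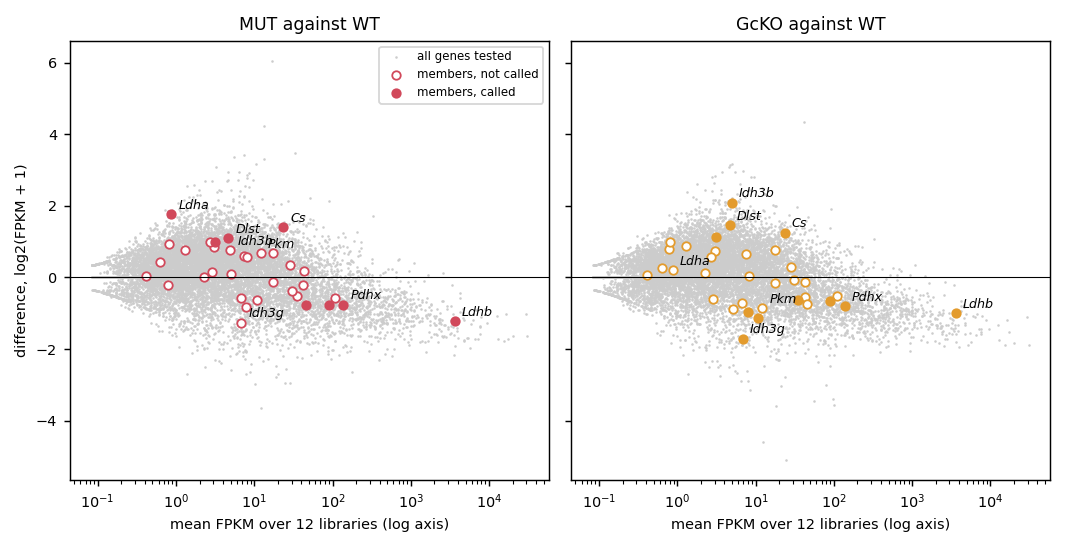
Difference from WT in log2(FPKM + 1) against mean FPKM (log axis) for all genes tested (grey) and the members (coloured, filled where called), in MUT and GcKO. The grey cloud bends below 0 above about 100 FPKM, with a median of -0.81 in MUT and -0.87 in GcKO in that class; Ldhb and Pdhx lie within it and Cs lies above it.

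Ldhb, the B subunit that prevails in aerobic tissues, fell in MUT and in GcKO (ENSMUSG00000030246.11, chr6:142490249-142507957, GRCm38). Its level was 5041, 4883 and 5653 FPKM in WT, 2133, 2374 and 2140 in MUT, 2034, 2691 and 3218 in GcKO and 4303, 4740 and 4206 in AmcKO. All 9 libraries of the other groups lay below the lowest WT library, and MUT and GcKO also lay below AmcKO. The difference from WT was -1.23 ± 0.17 (SE, n = 3 per group) in MUT, a 2.34-fold lower level with an adjusted p of 0.000256 by limma, and -0.99 ± 0.17 in GcKO with an adjusted p of 0.000982 by limma. In AmcKO it was -0.23 with an adjusted p of 0.518 by limma. The fall depended on the scaling of the libraries: with loess for mean abundance the difference was 0.08 in MUT (adjusted p 0.57 by limma) and 0.36 in GcKO, where Ldhb was then called higher (adjusted p 0.0135 by limma), and with equal FPKM sums the GcKO value was 0.05. The estimated fragments behind Ldhb overlapped, at 3144 to 4238 in WT and 3027 to 4064 in MUT. These numbers are not scaled for depth, and relative to MUT 2, 1 fragment was worth 2.28 to 2.66 in WT and 1.0 to 1.21 in MUT.

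Ldha, the A subunit that prevails in glycolytic tissues, was listed at 0 in all 3 WT libraries (ENSMUSG00000063229.15, chr7:46841475-46855627). MUT libraries held 1.16, 3.25 and 3.27 FPKM, GcKO 0.518, 0 and 0, and AmcKO 0, 2.3 and 0. Every MUT library lay above every WT library, while the other groups overlapped WT. The MUT difference was 1.77 ± 0.44 on the log2(FPKM + 1) scale, a size set in part by the pseudocount, with an adjusted p of 0.0127 by limma. It rested on an estimated 3 to 8 fragments per MUT library, and without MUT 2 or MUT 3 the adjusted p was 0.0529 or 0.0547 by limma. The granulosa markers Inha (5.44, 1.13 and 5.44 FPKM) and Hsd17b1 (2.06, 0.642 and 3.09 FPKM) were also above 0 in the MUT libraries and listed at 0 in WT. Of the 18 granulosa and cumulus markers, 6 were at 0 in all libraries, and the 6 tested had a median difference of 0.1 in MUT. Any part of granulosa cells in the Ldha value was not tested. Slc16a1, a carrier of lactate and pyruvate in the plasma membrane, had 1.81 ± 0.94 FPKM (SD, n = 3) in WT and 4.44 in MUT, with a difference of 0.99 and an adjusted p of 0.095 by limma.

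Of the transcripts of pyruvate entry, 3 were called against WT, and all 3 were lower. Pdhx, the subunit that holds the E3 enzyme in the pyruvate dehydrogenase complex, had 179, 186 and 183 FPKM in WT, 109, 101 and 114 in MUT, 78.3, 107 and 134 in GcKO and 156, 171 and 136 in AmcKO (chr2:103021075-103073513). WT libraries lay within a narrow range and above every other library. The difference was -0.76 ± 0.18 in MUT (adjusted p 0.00897 by limma) and -0.81 ± 0.18 in GcKO (adjusted p 0.00604 by limma). Dld, the E3 enzyme itself, which the 2-oxoglutarate complex also uses, had 108, 117 and 138 FPKM in WT, 78.9, 74.4 and 57.2 in MUT, 58.9, 76.2 and 97.7 in GcKO and 94.1, 110 and 74.2 in AmcKO (chr12:31331277-31351453). It fell by 0.78 in MUT (adjusted p 0.0189 by limma) and by 0.66 in GcKO (adjusted p 0.0428 by limma), and MUT and GcKO lay below WT without overlap. The MUT call was lost without MUT 3 (-0.64) or WT 6 (-0.68), and the GcKO call was kept only without GcKO 3, with differences of -0.83 to -0.47 over the left-out libraries.

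Of the pyruvate carrier subunits, Mpc2 was called lower in MUT, and its GcKO difference was of similar size but not called. It had 66.5, 42.1 and 76.7 FPKM in WT, 46.9, 29.2 and 30.8 in MUT, 39.4, 39.3 and 29.4 in GcKO and 44.9, 41.2 and 58.0 in AmcKO (chr1:165460637-165481214). MUT overlapped the lowest WT library, and the difference was -0.77 ± 0.25 with an adjusted p of 0.0435 by limma. In GcKO, where every library lay below WT, it was -0.73 ± 0.25 with an adjusted p of 0.0536 by limma. GcKO and MUT differed by 0.03. Mpc1 had 147, 133 and 129 FPKM in WT, 77.0, 91.0 and 110 in MUT, 77.4, 90.1 and 124 in GcKO and 101, 130 and 101 in AmcKO. Mpc1 did not pass the test (-0.56 in MUT, adjusted p 0.055, and -0.51 in GcKO, adjusted p 0.08, by limma), although no MUT or GcKO library reached the WT range. With equal FPKM sums the MUT differences of Pdhx, Dld and Mpc2 were 0.23, 0.21 and 0.21, so the direction of these 3 falls turned under that scaling. The Mpc2 call was lost without MUT 2, MUT 3, WT 4 or WT 6, with differences of -1.02 to -0.59 over the left-out libraries. The E1 subunits Pdha1 and Pdhb were not called against WT. Pdhb had 11.2 ± 4.9 FPKM in WT, 17.4 in MUT, 18.7 in GcKO and 22.8 in AmcKO. Every MUT, GcKO and AmcKO library lay above the WT range of Pdhb. Its differences were 0.69, 0.78 and 1.06 in MUT, GcKO and AmcKO (adjusted p 0.0938, 0.0625 and 0.125 by limma). Pcx, which makes oxaloacetate from pyruvate, was above 0 in 3 of 12 libraries.

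Cs, citrate synthase, the entry step of the TCA cycle, rose in MUT and in GcKO (ENSMUSG00000005683.8, chr10:128337734-128362479). It had 14.0, 11.7 and 8.88 FPKM in WT, 26.7, 35.0 and 34.5 in MUT, 36.8, 27.8 and 22.2 in GcKO and 20.2, 20.9 and 24.2 in AmcKO. Each of the 9 libraries lay above the highest WT library. The difference was 1.41 ± 0.23 in MUT (2.66-fold on the log2(FPKM + 1) scale, adjusted p 0.000798 by limma), 1.25 ± 0.23 in GcKO (adjusted p 0.00173 by limma) and 0.88 ± 0.23 in AmcKO, where it was not called (adjusted p 0.12 by limma). The estimated fragments were 15 to 23 in WT against 95 to 135 in MUT and 57 to 146 in GcKO. These numbers are not scaled for depth. Relative to MUT 2, 1 fragment was worth 2.28 to 2.66 in WT, 1.0 to 1.21 in MUT and 0.902 to 1.5 in GcKO. Both calls were kept under all 15 alternatives, among them every scaling and each left-out library, with values from 1.25 to 2.35 in MUT and from 1.07 to 2.22 in GcKO.

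Dlst, the E2 core of the 2-oxoglutarate dehydrogenase complex, rose as well (chr12:85110833-85134845). It had 1.87, 1.41 and 3.63 FPKM in WT, 4.31, 6.64 and 6.75 in MUT, 6.91, 7.18 and 9.16 in GcKO and 3.98, 1.5 and 2.58 in AmcKO. MUT and GcKO lay above WT without overlap, and AmcKO overlapped WT. The difference was 1.10 ± 0.33 in MUT (adjusted p 0.0321 by limma) and 1.45 ± 0.33 in GcKO (adjusted p 0.00754 by limma), on an estimated 2 to 6 fragments in WT against 22 to 29 in GcKO. The GcKO call was kept under all 14 alternatives in which Dlst was tested and the MUT call under 7 of 14. The MUT difference was 0.90 to 1.37 with 1 library left out and lost its call without MUT 2, MUT 3, WT 4 or WT 5. Ogdh, the E1 subunit of the same complex, had 0.69 FPKM in WT, 1.76 in MUT and 1.97 in GcKO and was not called (adjusted p 0.126 and 0.082 by limma).

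The 3 subunits of NAD-linked isocitrate dehydrogenase did not move together in GcKO. Their MUT differences had the same signs but were not called, and GcKO against MUT called none of the 3. Idh3b, a structural subunit, had 1.24, 1.4 and 2.4 FPKM in WT, 2.86, 3.2 and 4.5 in MUT, 9.18, 8.61 and 13.6 in GcKO and 4.78, 6.03 and 1.94 in AmcKO (ENSMUSG00000027406.12, chr2:130279309-130284547). GcKO libraries lay above every other library, with a difference from WT of 2.09 ± 0.35 and an adjusted p of 0.00098 by limma. In MUT the difference was 0.76 (adjusted p 0.139 by limma). WT values rested on an estimated 1 or 2 fragments and GcKO values on 19 or 20. Exons of Idh3b overlap those of Nop56 on the other strand, and the sources used here do not say whether counting used strand. Nop56 had 4.78, 3.25 and 11.1 FPKM in WT and 7.86, 9.2 and 6.13 in GcKO, with a difference of 0.37 and an adjusted p of 0.498 by limma.

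Idh3a, the catalytic subunit, had 51.1, 38.0 and 45.3 FPKM in WT, 33.3, 28.7 and 30.9 in MUT, 20.4, 29.4 and 37.4 in GcKO and 35.9, 40.5 and 32.5 in AmcKO (chr9:54586334-54604661). It fell by 0.64 in GcKO (adjusted p 0.049 by limma). In MUT, where every library lay below WT, the difference was -0.51 (adjusted p 0.106 by limma). GcKO lay just below WT, and 5 of 15 alternatives kept the GcKO call. It was lost without GcKO 1 (-0.41), GcKO 2 (-0.67), WT 4 (-0.54) or WT 6 (-0.63). Idh3g, the remaining subunit, had 10.2, 19.8 and 7.05 FPKM in WT, 2.69, 8.18 and 3.03 in MUT, 3.59, 5.06 and 0.938 in GcKO and 7.5, 9.78 and 4.57 in AmcKO (chrX:73778963-73786897). Its GcKO difference was -1.71 ± 0.49 (adjusted p 0.0236 by limma), and it was not called without GcKO 1 (-1.85), GcKO 3 (-1.22) or WT 5 (-1.33). Idh3g differed by -1.26 in MUT (adjusted p 0.0828 by limma). Its values rested on an estimated 1 to 14 fragments in any library.

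Of the remaining TCA enzymes, Fh1 alone was called. Fh1, fumarase, had 9.13, 11.6 and 12.2 FPKM in WT, 10.0, 4.9 and 3.55 in MUT, 5.63, 5.27 and 4.39 in GcKO and 8.05, 11.8 and 8.31 in AmcKO (chr1:175600374-175625635). All GcKO libraries lay below WT, with a difference of -0.97 ± 0.31 (adjusted p 0.0391 by limma). The call was kept without WT 4 and lost without each of the other 5 libraries of the comparison, with differences of -1.03 to -0.88. Mdh2, mitochondrial malate dehydrogenase, had 43.4 ± 7.7 FPKM in WT, 49.5 in MUT and 39.4 in GcKO. The succinyl-CoA ligase subunits Sucla2, Suclg1 and Suclg2 were also not called in any comparison.

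Among the cytosolic relatives, Aco1 rose and Idh1 fell. Aco1, cytosolic aconitase, which also acts as an iron-responsive RNA-binding protein, had 1.92, 0.871 and 2.24 FPKM in WT, 4.43, 3.59 and 4.75 in MUT, 6.63, 3.98 and 3.93 in GcKO and 1.72, 2.54 and 0.99 in AmcKO (chr4:40143081-40198338). MUT and GcKO lay above WT without overlap, with differences of 1.00 ± 0.33 (adjusted p 0.0442 by limma) and 1.13 ± 0.33 (adjusted p 0.0258 by limma), on an estimated 2 to 5 fragments in WT. The MUT call was lost under 10 of 14 alternatives, and of the left-out libraries only WT 6 left it in place (differences of 0.76 to 1.16 over all 6). The GcKO call was lost without GcKO 1 (0.93) or WT 5 (0.89). Idh1, the cytosolic NADP-linked isocitrate dehydrogenase, had 17.2, 15.9 and 13.7 FPKM in WT, 11.9, 8.68 and 8.88 in MUT, 6.74, 8.11 and 5.0 in GcKO and 8.5, 17.5 and 7.29 in AmcKO (chr1:65158616-65186500). It fell by 1.14 in GcKO (adjusted p 0.0146 by limma), a call kept under 14 of 15 alternatives and lost with equal FPKM sums. Mdh1, the cytosolic malate dehydrogenase, and Idh2, the mitochondrial NADP-linked enzyme, were not called.

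None of the 9 tested enzymes from glucose phosphate isomerase to pyruvate kinase was called against WT by limma, and 3 in MUT, 3 in GcKO and 2 in AmcKO had an unadjusted p under 0.05. Upper glycolysis (9 members, 5 tested) summed to 46.5 to 69.2 FPKM in WT, mainly Tpi1 and Aldoa, and the sums of MUT (47.4 to 54.3), GcKO (52.9 to 61.4) and AmcKO (45.3 to 49.9) overlapped that range. Lower glycolysis (6 members, 4 tested), mainly Pkm, summed to 13.8 to 24.8 FPKM in WT. All MUT sums lay above that range (25.4 to 30.9) and all GcKO sums below it (10.9 to 13.5), AmcKO overlapped it (11.8 to 14.0), and the sums were not tested. Gpi1, which isomerises glucose 6-phosphate, had 1.85 ± 0.63 FPKM in WT and 4.04 in MUT (difference 0.84, adjusted p 0.0728 by limma). Pgam1, phosphoglycerate mutase, was listed at 0 in WT and lay at 0.385 to 2.46 FPKM in the other 9 libraries. Gapdh, which oxidises glyceraldehyde 3-phosphate, ranged from 0 to 5.99 FPKM within WT alone, and no difference was detectable at this depth.

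Pkm, pyruvate kinase, and Dlat, the E2 core of the pyruvate dehydrogenase complex, are described in full because they separated MUT from AmcKO, and this choice was made after their values were seen. Pkm had 15.9, 9.78 and 14.0 FPKM in WT, 19.6, 23.1 and 21.2 in MUT, 4.73, 10.5 and 5.99 in GcKO and 9.21, 6.52 and 4.47 in AmcKO. MUT lay above every other library. Pkm was higher in MUT than in AmcKO by 1.57 ± 0.30 (adjusted p 0.0073 by limma), and lower in GcKO than in MUT by 1.52 on the log2 scale, which did not pass the test (adjusted p 0.0674 by limma). Exons of Pkm overlap those of another annotated gene. Dlat had 9.53, 4.22 and 8.05 FPKM in WT, 6.1, 7.56 and 8.95 in MUT, 4.42, 2.86 and 2.91 in GcKO and 1.06, 1.74 and 3.63 in AmcKO, and was higher in MUT than in AmcKO by 1.51 ± 0.35 (adjusted p 0.0203 by limma). MUT and AmcKO did not overlap for either transcript. Pkm (chr9:59656368-59679375) and Dlat (chr9:50634633-50659780) lie on the chromosome of Dpagt1 (chr9:44326019-44333900), as does Idh3a. GcKO and AmcKO share the floxed Dpagt1 allele, which the MUT labels do not name. The part of that allele, or of DNA linked to it, in the Pkm and Dlat values was not tested. The Pkm call was kept with each library left out (1.34 to 1.79), and the Dlat call was lost without AmcKO 4, AmcKO 5, MUT 2 or MUT 3 (1.25 to 1.83 over all left-out libraries).

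Between MUT and AmcKO 3 members were called (Ldhb lower by 0.99, Pkm and Dlat higher), beside 6.49% of all genes (5.07% lower and 1.42% higher). Between GcKO and AmcKO 2 were called, beside 5.46% of all genes (4.79% lower and 0.668% higher). These were Ldhb, lower by 0.76 (adjusted p 0.016 by limma), and Dlst, higher by 1.29 (adjusted p 0.0392 by limma). Ldhb lost its call without AmcKO 4 or AmcKO 5 (-0.91 to -0.58 with 1 library left out), and Dlst kept it only without AmcKO 4 (1.04 to 1.54). The MUT call of Ldhb was also lost with quantile normalization (-0.08) and with loess (-0.10). Its GcKO call was lost with equal FPKM sums (-0.02), quantile normalization (0.13), loess (0.19), no variance trend and the fit of only the 2 groups, which called 0 of all genes. Pkm kept its call between MUT and AmcKO in each of these settings. Between GcKO and MUT limma called 0 members at the adjusted threshold, beside 0.205% of all genes (0.134% lower and 0.0712% higher). At an unadjusted p under 0.05 by limma there were 4 members, and the share of all genes at that threshold was not computed.

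A ratio of 2 transcripts within a library is not altered by a single scaling factor for that library, apart from the pseudocount. Quantile normalization is no such factor and can alter it. A shift with abundance is no such factor either, and it can alter a ratio of an abundant to a scarce transcript. In MUT and GcKO the median difference over all genes was -0.81 and -0.87 at 100 FPKM or more. It was -0.08 and -0.11 between 10 and 100 FPKM, and 0.26 in each under 10 FPKM. Ldhb and Ldha differ in this class, as do Idh3a and Idh3b, while Idh3g and Idh3b are both under 10 FPKM. The part of that shift in the ratios was not tested. Of 12 pairs of isozymes or subunits, 10 had both members above 0 somewhere. Each was compared across the 4 groups by an exact permutation test over 369600 assignments of the libraries, with adjustment over the 10 pairs, and 3 passed. The log2 ratio Idh3a/Idh3b was 4.11 ± 0.39 (SD, n = 3) in WT, 2.83 ± 0.31 in MUT, 1.38 ± 0.30 in GcKO and 2.92 ± 0.52 in AmcKO, with an adjusted exact p of 0.00292, and GcKO did not overlap any other group. The ratio Idh3g/Idh3b was 2.23 ± 0.94 in WT, 0.20 ± 0.82 in MUT, -1.57 ± 1.18 in GcKO and 0.70 ± 0.20 in AmcKO, also with an adjusted exact p of 0.00292. Ldha/Ldhb ran from -12.5 to -12.3 in WT and from -9.95 to -8.97 in MUT, with an adjusted exact p of 0.0119. That exact p became 0.0838 with a pseudocount of 0.1, 0.134 with quantile normalization and 0.0569 without MUT 3, and Ldha was at 0 in WT. The test of 1 group of 3 against another cannot go below an exact p of 0.1, so no pair of groups was tested. Among the 7 pairs that did not pass, Mpc1/Mpc2 was 1.17 in WT, 1.37 in MUT, 1.39 in GcKO and 1.19 in AmcKO, and the adjusted exact p was 0.924.

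**Figure D4:**
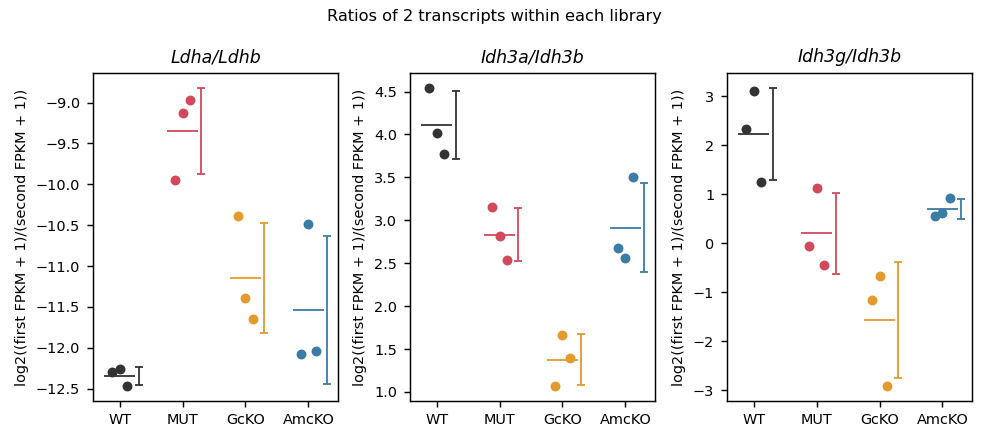
log2((first FPKM + 1)/(second FPKM + 1)) in each library for the 3 pairs that passed the exact test, with points for libraries, a line for the mean and a bar for the SD of 3 libraries. Idh3a/Idh3b falls from 4.11 in WT to 1.38 in GcKO with no overlap, and Ldha/Ldhb is highest in MUT at -9.35.

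Some related genes outside the 41 were called in the same comparisons, beside 20.8% of all genes in MUT and 20.2% in GcKO. Bpgm, which makes 2,3-bisphosphoglycerate, was nearly as abundant as Ldhb, at 3297 to 3762 FPKM in WT, and was lower by 1.00 in MUT (adjusted p 0.00431 by limma) and by 1.04 in GcKO (adjusted p 0.00352 by limma); it was the sole call among 6 tested glycolysis relatives. Among 5 tested glycolysis regulators, Gckr, the glucokinase regulatory protein, was lower in both (-1.01 and -1.16) and Pfkfb2, which makes or removes fructose 2,6-bisphosphate, was higher in MUT (1.20). Of 6 tested pyruvate dehydrogenase regulators and relatives, Lipt1, which transfers the lipoyl group to 2-oxoacid dehydrogenases, was lower in MUT (-1.31) and GcKO (-1.26), and Pdha2, the testis-type E1 subunit, was higher in MUT (1.58). Of 10 tested TCA cycle relatives, not all of which are named here, 1 was lower and 4 higher in MUT and 1 lower and 3 higher in GcKO. Sdhd, a membrane anchor of succinate dehydrogenase, was lower by 1.06 in MUT and by 1.23 in GcKO, while the catalytic subunit Sdha was higher by 0.96 and 0.86. Me1 and Me2, the malic enzymes, were higher in both. Of 9 tested shuttle and anaplerosis genes, not all of which are named here, 1 was lower and 3 higher in MUT and 1 lower and 2 higher in GcKO. The cytosolic aspartate aminotransferase Got1 was lower by 1.41 in MUT and by 0.87 in GcKO, whereas its mitochondrial partner Got2 was higher in MUT (1.30), and Glud1, glutamate dehydrogenase, was higher in both. None of 4 tested glucose and monocarboxylate carriers and none of 8 pentose phosphate pathway genes was called by limma in any comparison against WT; at an unadjusted p under 0.05 these were 0 carriers, and 1, 2 and 3 pentose phosphate genes in MUT, GcKO and AmcKO.

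The split between lower and higher members depended on how libraries were scaled. With equal FPKM sums the median difference over all genes moved from 0.12 to 0.71 in MUT and to 0.74 in GcKO, and 94.9% and 95.2% of the called genes were higher, against 45.6% and 43.2% as deposited. Under that scaling 1 of 34 members was lower and 19 were higher in MUT, beside 251 lower and 4643 higher of 11233 genes. In GcKO 0 members were lower and 15 higher, beside 240 lower and 4767 higher genes. Ldhb was the 1 lower member in MUT. The members' own medians, 0.86 and 0.65, lay near those of all genes. With quantile normalization 0 members were lower and 2 higher in MUT (Cs and Ldha), beside 720 lower and 753 higher genes. In GcKO 3 members were lower and 3 higher, beside 665 lower and 691 higher genes. FPKM values are relative, and with 20 oocytes per library less RNA per oocyte and fewer oocytes that hold a transcript cannot be told apart.

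**Figure D5:**
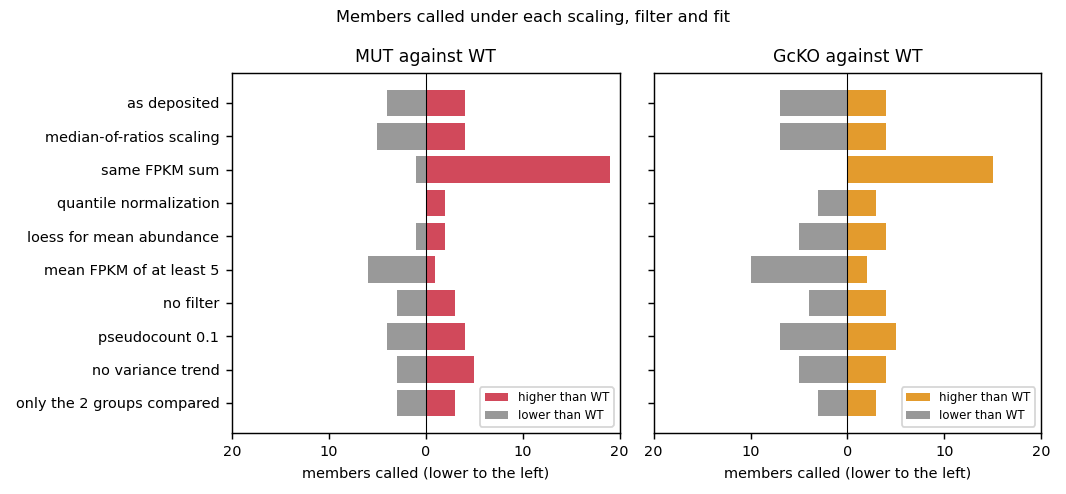
Number of members called higher (right) and lower (left) than WT under each scaling, filter and fit, in MUT and GcKO. The deposited scale gives 4 and 4 in MUT and 7 lower and 4 higher in GcKO, and equal FPKM sums give 19 higher in MUT and 15 higher in GcKO. Of all 11233 genes, equal FPKM sums give 4643 higher in MUT and 4767 higher in GcKO.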

How the data were processed

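Oocyte RNA was amplified by Smart-seq2 and sequenced as paired 150-nt reads. Per the labels, the authors aligned reads to mm10 with TopHat2 2.0.13 and computed FPKM with Cufflinks 2.2.1 and Cuffnorm, and the deposited table gives 1 FPKM value per gene and library. Its columns of fold changes and tests were not used. Fragment counts were not used here, so depth is known only through the worth of 1 fragment. This was read from values under 2 FPKM and set to fragments through 2463 genes whose values were whole multiples within 0.06 and the longest GENCODE M21 transcript. The resulting numbers are estimates, are not scaled for depth, cover counting only and entered no test.

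Genes with at least 1 FPKM in at least 1 library were tested on log2(FPKM + 1) with limma 3.58.1 (R 4.3.3), with an abundance trend and all 12 libraries in 1 fit (8 residual degrees of freedom). On simulated data for MUT against WT (11233 genes, 200 changed) 100% of 4-fold and 49% of 2-fold changes were recovered. The changed genes were drawn only from those with a WT mean of log2(FPKM + 1) over 2. These rates therefore do not cover scarcer members, such as Ldha, Pgam1, Idh3b and Dlst. Alternatives were another pseudocount, filters, scalings, fits, thresholds, a replicate block and each library left out. Values per library are given for members called against WT, for the members of ratio pairs that passed and for the 3 most abundant members, and related genes are named up to 6 per list by adjusted p, except for some that are not reported here. Members, lists and tests were chosen with earlier results of these data known. Promoters are from RefSeq and coordinates from GENCODE M21, both on GRCm38; 40 of 41 members matched a promoter. Exons of 9 members overlap those of another gene.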

Additional observations from a re-analysis of the deposited data

Results flagged for a closer look

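The changes of 4 members against WT differed between groups by a direct limma test. Ldhb differed by -0.99 between MUT and AmcKO (adjusted p 0.00302 by limma) and by -0.76 between GcKO and AmcKO (adjusted p 0.016 by limma), and all 3 libraries of MUT and of GcKO lay below all 3 of AmcKO. Both Ldhb differences lost their call with quantile normalization and with loess for mean abundance, and the GcKO one also with equal FPKM sums, without the variance trend and in the fit of only the 2 groups. Pkm differed by 1.57 between MUT and AmcKO and Dlat by 1.51, each higher in 3 of 3 MUT libraries than in any AmcKO library. Dlst differed by 1.29 between GcKO and AmcKO, again without overlap. Pkm also lay above the WT range in every MUT library and below it in every AmcKO library, with group means 14.6 FPKM apart, and this opposite placement was itself not tested.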

How the results depend on the processing

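In MUT against WT 8 members were called, beside 2332 of 11233 genes. Equal FPKM sums gave 20 members, quantile normalization 2 and loess for mean abundance 3, beside 4894, 1473 and 1542 genes. An adjusted p under 0.01 gave 3 members and a fold over 2 gave 5. Counts of all genes at these 2 thresholds were not computed in any comparison. Leaving out 1 library gave 4 to 8 members, with 5 without MUT 2 and 4 without MUT 3, beside 1493 to 1998 genes. In GcKO against WT 11 were called, beside 2264 of all genes. Quantile normalization and the fit of only the 2 groups gave 6 members each, beside 1356 and 1248 genes. A fold over 2 gave 6 and an adjusted p under 0.01 gave 5. Leaving out 1 library gave 6 to 11 members, with 6 without GcKO 1, beside 1353 to 2304 genes. In GcKO against MUT 0 became 1 (Pkm) with a mean FPKM of at least 5, equal FPKM sums, quantile normalization or without GcKO 2 (range 0 to 1). Over all genes these settings called 29, 71, 59 and 19, against 23 as deposited. In MUT against AmcKO 3 became 14 with equal FPKM sums, beside 2558 of all genes against 729 as deposited. With 1 library left out there were 2 to 4 members, beside 354 to 715 genes. In GcKO against AmcKO 2 became 13 with equal FPKM sums, beside 2591 of all genes against 613 as deposited. Pseudocount 0.1 and no filter gave 1 member each, beside 614 and 520 genes, and a fold over 2 gave 1. Quantile normalization, loess, no variance trend and only the 2 groups gave 0 members, beside 250, 225, 199 and 0 genes. An adjusted p under 0.01 gave 0. With 1 library left out there were 0 to 2 members, beside 313 to 752 genes. AmcKO against WT gave 0 members in every alternative, beside 9 to 135 of all genes over the settings that were fitted anew. The ratio pairs that passed numbered 3, and 2 to 4 with 1 library left out.

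Some directions turned. With equal FPKM sums the MUT difference was 0.21 for Dld, 0.46 for Idh3a, 0.21 for Mpc2 and 0.23 for Pdhx, and the GcKO difference was 0.37 for Dld, 0.37 for Idh3a, 0.045 for Ldhb and 0.22 for Pdhx. For Ldhb, loess gave 0.081 in MUT and 0.36 in GcKO, and quantile normalization gave 0.19 in GcKO. Over all genes, 2332 calls in MUT became 4894 with equal FPKM sums and 1473 with quantile normalization, and 2264 in GcKO became 5007 and 1356. The cause was not tested.

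Replicate numbers did not pair the libraries: correlations of same-numbered deviations ran from -0.04 to 0.04. With a replicate block, which leaves 4 residual degrees of freedom, AmcKO against WT and GcKO against MUT gave 0 members. Low members rested on few fragments, so their differences, called or not, are uncertain at this depth.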
